A study of Mus musculus with 2 samples.

Results

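Intermediate filaments are ropes of rod-shaped proteins that give a cell its mechanical strength, and 9 of their genes were followed here in mouse cerebral cortex: the neurofilament light, medium and heavy chains (Nefl, Nefm and Nefh), alpha-internexin (Ina), peripherin (Prph), glial fibrillary acidic protein (Gfap), vimentin (Vim), nestin (Nes) and synemin (Synm). The 9 genes were taken by symbol from 55536 annotated genes, and all 9 had 1 TPM (length-scaled transcript abundance) or more in both libraries. Total RNA was sequenced from left cerebral cortex of female B6CASTF1/J mice, a first-generation cross of C57BL/6J and CAST/EiJ, at 14 days of age. The data form 1 group of 2 libraries, called biological replicates in the labels, each from 300 ng of RNA with ERCC spike-ins (synthetic RNAs of known amount) and with no treatment named. Both labels speak of 3 females in 1 field, the tissue fields carry different numbers, and both give the same donor entry, so the number of mice behind a library is unknown. No second condition exists, so the design allows levels, ratios between genes, transcript shares and the difference between these 2 libraries.

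Neurofilaments fill the axons of neurons and set their calibre. The light chain forms the core of the filament with alpha-internexin, and the medium and heavy chains add long tails that are phosphorylated at repeats of lysine, serine and proline. In astrocytes the filaments are built from glial fibrillary acidic protein and vimentin, with synemin as a partner that cannot form filaments alone. Nestin joins vimentin in neural progenitors and in cells of growing vessels, and peripherin is best known from neurons that project to the periphery.

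Gene counts summed to 32013997 in replicate 2 and 33362704 in replicate 1, and spike-ins took 0.361% and 0.359% of counts in those libraries. Neuron markers were present in both libraries, which does not by itself identify the tissue as cortex. Of these, 7 of 7 (Rbfox3, Snap25, Syt1, Slc17a7, Gad1, Tubb3 and Map2) reached 1 TPM in each library, the level called detected here. They summed to 3074 TPM in replicate 2 and 3193 TPM in replicate 1. All 10 astrocyte markers were detected, summing to 1760 TPM in replicate 2 and 1914 TPM in replicate 1. Some marker lists differed between the libraries. Ependymal and choroid plexus markers summed to 140 TPM in replicate 2 and 15.7 TPM in replicate 1, of which the choroid plexus gene Ttr alone gave 131 and 9.86 TPM, while the ependymal gene Foxj1 had 2.58 TPM in replicate 2 and 2.60 TPM in replicate 1. The 8 myelinating oligodendrocyte markers summed to 750 TPM in replicate 2 and 1355 TPM in replicate 1. In bulk tissue, fewer cells of a type and less RNA per cell cannot be told apart.

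Some of the results turn on short stretches of sequence, all read from GENCODE M21 transcripts on mm10. The tails of the heavy and medium chains carry the phosphorylated repeats, shown with each lysine-serine-proline codon triplet in capitals. The stretch of Nefh lies at chr11:4940830-4941069 on the minus strand (codons 517 to 596, within an exon), and that of Nefm at chr14:68121063-68121122 on the minus strand (codons 488 to 507).
Nefh-201: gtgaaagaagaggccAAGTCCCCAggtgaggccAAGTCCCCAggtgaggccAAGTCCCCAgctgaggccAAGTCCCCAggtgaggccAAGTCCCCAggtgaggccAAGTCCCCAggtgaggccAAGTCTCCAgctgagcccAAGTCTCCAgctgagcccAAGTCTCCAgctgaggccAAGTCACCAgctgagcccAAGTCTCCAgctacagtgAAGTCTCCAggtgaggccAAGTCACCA
Nefm-201: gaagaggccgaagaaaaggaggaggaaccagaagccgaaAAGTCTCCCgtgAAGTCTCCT
A triplet was any lysine codon (AAA or AAG), then any serine codon (TCN, AGT or AGC), then any proline codon (CCN), read in frame on the coding strand. Each printed stretch was picked as the first window of its length with the most triplets in that coding sequence. That of Nefh holds 13 triplets in 240 bases, and that of Nefm 2 in 60 bases. The stretches differ in length and do not compare density. Over the whole coding sequence, density was 4.68 triplets per 100 codons in Nefh and 0.472 in Nefm.

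The coding sequences of the main forms of Vim differ from an exon of 86 bases at chr2:13581613-13581698 on the plus strand onward, in capitals below, which Vim-206 leaves out. The spliced coding stretches lie within chr2:13580640-13582511 for Vim-201 and chr2:13580640-13582480 for Vim-206.
Vim-201: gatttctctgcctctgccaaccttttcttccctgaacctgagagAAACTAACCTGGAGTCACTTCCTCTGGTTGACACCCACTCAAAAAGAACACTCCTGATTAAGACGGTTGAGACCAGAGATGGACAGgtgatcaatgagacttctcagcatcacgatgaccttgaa
Vim-206: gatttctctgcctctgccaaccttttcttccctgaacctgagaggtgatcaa
After the join, 8 coding bases remain in Vim-206, against 125 in Vim-201 past the same point, and the coding sequences have 427 and 466 codons.

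The most abundant of the 9 genes in both libraries was Nefl, the core subunit, and the least abundant was Prph. Levels are given in TPM, which are scaled for transcript length and can be compared between genes. The authors deposited 2 quantifications of each library, called the first table (gene and transcript estimates with posterior errors) and the second table (a separate transcript estimate, summed per gene here). Nefl (chr14:68083863-68089095) had 167 TPM in replicate 2 and 186 TPM in replicate 1, a mean of 177 ± 13.5 TPM (SD, n = 2). Among 22028 protein-coding genes, that placed Nefl at rank 494 in replicate 2 and 423 in replicate 1. The second table gave 240 ± 15.9 TPM (SD, n = 2).

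Alpha-internexin and the medium chain followed. Ina (chr19:47014698-47025327) had 87.1 TPM in replicate 2 and 91.2 TPM in replicate 1, a mean of 89.2 ± 2.91 TPM (SD, n = 2). Nefm (chr14:68082590-68124846) had 72.8 TPM in replicate 2 and 90.0 TPM in replicate 1, a mean of 81.4 ± 12.2 TPM (SD, n = 2). The library values of Ina and Nefm overlapped in the first table, so their order was within the spread there, while Ina was above Nefm within each library. In the second table Ina averaged 127 ± 4.55 TPM and Nefm 110 ± 15.2 TPM (SD, n = 2 each), and the library values did not overlap.

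The heavy chain was far below its partners at this age. Nefh (chr11:4938754-4948064) had 18.1 TPM in replicate 2 and 18.5 TPM in replicate 1, a mean of 18.3 ± 0.276 TPM (SD, n = 2), and 28.3 ± 0.355 TPM in the second table. Prph (chr15:99055174-99058978) had 2.91 TPM in replicate 2 and 2.46 TPM in replicate 1, a mean of 2.69 ± 0.318 TPM (SD, n = 2). That rested on 89 counts in replicate 2 and 81 in replicate 1. Markers of peripheral, motor and cranial neurons were sparse beside it: 1 of 10 (Slc18a3, the vesicular acetylcholine transporter) reached 1 TPM in both libraries, and the list summed to 4.48 TPM in replicate 2 and 3.06 TPM in replicate 1. Their part in the Prph level was not tested.

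Gfap led the glial and progenitor filaments. Gfap (chr11:102887336-102900912) had 66.9 TPM in replicate 2 and 58.9 TPM in replicate 1, a mean of 62.9 ± 5.67 TPM (SD, n = 2). Vim (chr2:13573927-13582826) had 38.9 TPM in replicate 2 and 35.1 TPM in replicate 1, a mean of 37.0 ± 2.62 TPM (SD, n = 2). The library values of Gfap lay above those of Vim without overlap, and those of Vim lay above those of Nefh.

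Synemin and nestin were lower still. Synm (chr7:67730160-67759742) had 9.90 TPM in replicate 2 and 9.86 TPM in replicate 1, a mean of 9.88 ± 0.0283 TPM (SD, n = 2). Nes (chr3:87971078-87980451) had 4.93 TPM in replicate 2 and 3.68 TPM in replicate 1, a mean of 4.30 ± 0.884 TPM (SD, n = 2). In both libraries and both tables the order of the 9 levels was Nefl, Ina, Nefm, Gfap, Vim, Nefh, Synm, Nes and Prph. Apart from Ina and Nefm in the first table, no neighbours in that order had overlapping library values, though n = 2 sets a narrow basis for the spread.

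**Figure D1:**
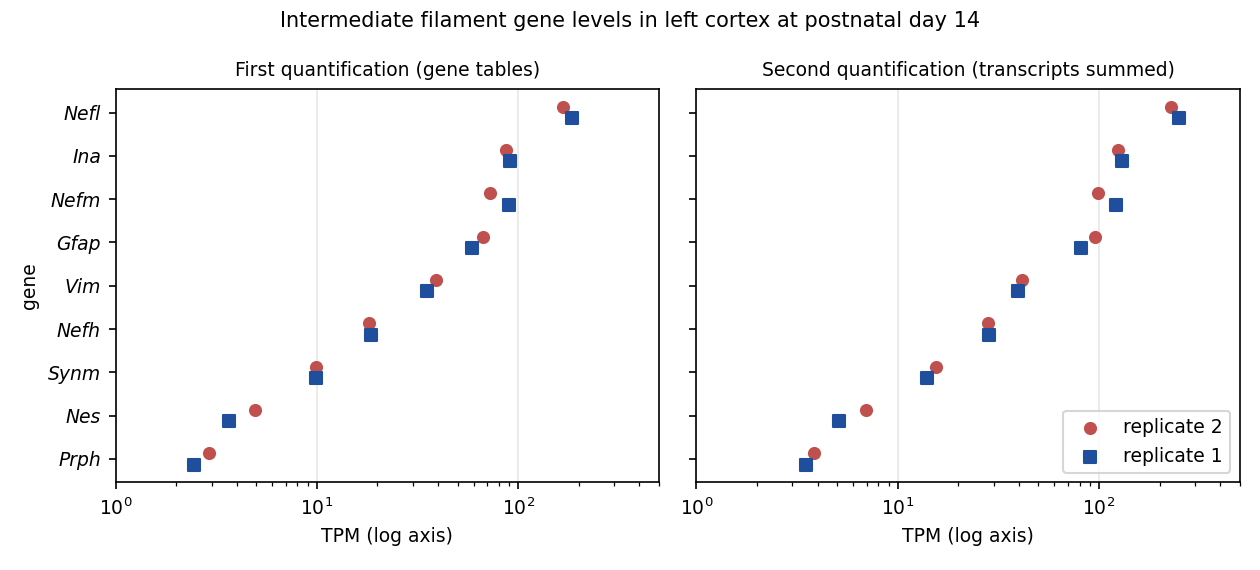
TPM (log axis) of each gene in replicate 2 (circles) and replicate 1 (squares), from the first quantification (left) and the second (right). Genes keep the same order in both panels, with Nefl highest at a mean of 177 TPM in the first table and Prph lowest at 2.69 TPM.

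The TPM scale itself differed between the tables. Second-table levels were 1.09-fold (Vim) to 1.55-fold (Nefh) those of the first. Protein-coding genes held 51.2% of first-table TPM in replicate 2 and 51.0% in replicate 1, against 81.2% and 80.1% of second-table TPM in the same libraries. With TPM counted over protein-coding genes alone, the second table was 0.693-fold (Vim) to 0.980-fold (Nefh) the first. Shares and ratios between members do not depend on that overall scale.

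Most of the neuronal filament RNA came from Nefl, Ina and Nefm. The 5 neuronal genes summed to 348 TPM in replicate 2 and 388 TPM in replicate 1. Nefl took 48.0% of that sum in replicate 2 and 48.0% in replicate 1. Ina took 25.0% in replicate 2 and 23.5% in replicate 1, and Nefm 20.9% and 23.2% in the same libraries. Nefh held 5.20% in replicate 2 and 4.76% in replicate 1, and Prph averaged 0.735% ± 0.143 (SD, n = 2). Within the neurofilament triplet alone, the light, medium and heavy chains averaged 64.0% ± 1.12, 29.4% ± 1.65 and 6.64% ± 0.523 of the TPM (SD, n = 2), and the second table gave mean shares of 63.5%, 29.0% and 7.50%.

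As ratios of TPM within a library (log2 of TPM + 0.1), Nefl exceeded Nefm by 1.20 in replicate 2 and 1.05 in replicate 1, a mean ratio of 2.18-fold. Nefl exceeded Ina by 0.94 in replicate 2 and 1.03 in replicate 1, or 1.98-fold. Nefl exceeded Nefh by 3.20 in replicate 2 and 3.33 in replicate 1, or 9.60-fold. Each of these ratios was positive in 2 of 2 libraries and in both tables. The ratio of Nefm to Ina was near equality, at a log2 of -0.26 in replicate 2 and -0.02 in replicate 1, a mean of -0.14 ± 0.17 (SD, n = 2). An exact sign test on 2 libraries cannot go below p = 0.5, so these ratios are given without a test.

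The gene with the most repeats was the rarest of the neurofilament triplet. Nefh carries 51 lysine-serine-proline codon triplets in 1090 codons, the most among 21815 mouse coding sequences and 4.68 per 100 codons. Nefm carries 4 in 848 codons and Nes 5 in 1864 codons. The other 6 members carry none in their longest coding sequence. Over all coding sequences, 10.6% hold 1 or more triplet, and 0.0779% hold 5 or more. A triplet is a match of letters and not a measured phosphorylation site.

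**Figure D2:**
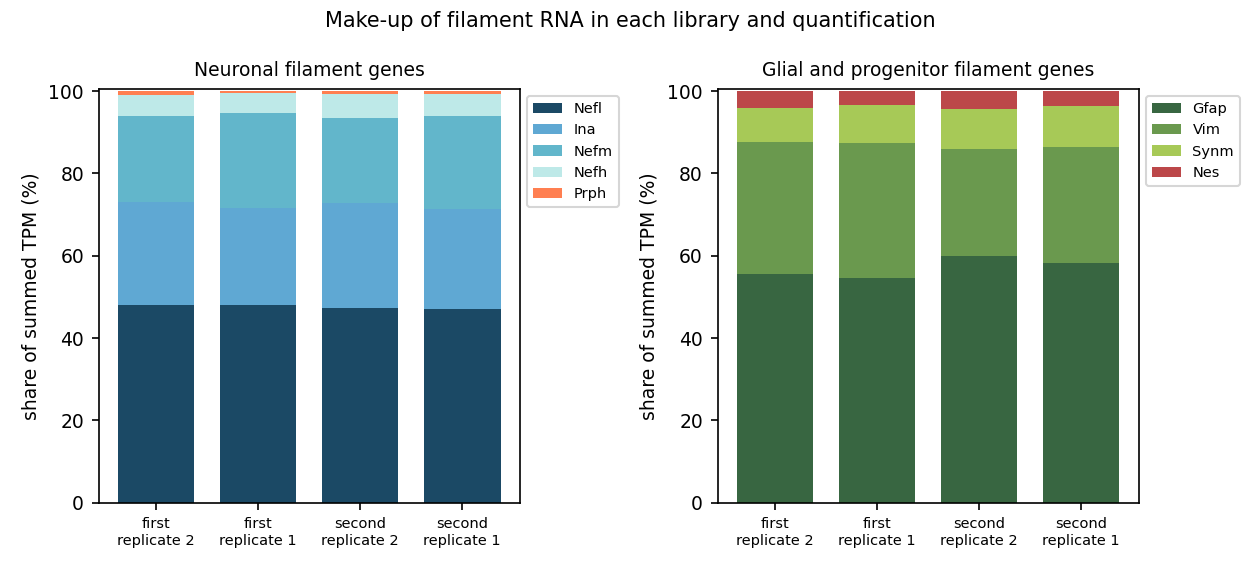
Share of summed TPM (%) in each library (replicate 2, then replicate 1) for the first and second quantification, for the 5 neuronal filament genes (left) and the 4 glial and progenitor genes (right). Nefl takes 48.0% of the neuronal sum in both libraries of the first table, and Gfap 55.5% in replicate 2 and 54.7% in replicate 1 of the glial and progenitor sum.

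Among the glial and progenitor filaments, Gfap and Vim held most of the RNA. Their 4 genes summed to 121 TPM in replicate 2 and 108 TPM in replicate 1. Gfap took 55.1% ± 0.523 and Vim 32.4% ± 0.319 of the sum, with Synm at 8.69% ± 0.676 and Nes at 3.75% ± 0.472 (SD, n = 2 each). Gfap exceeded Vim by a log2 TPM ratio of 0.78 in replicate 2 and 0.74 in replicate 1, or 1.70-fold, while the second table gave a mean of 1.13 ± 0.11 (SD, n = 2), or 2.19-fold. Gfap exceeded Nes 14.4-fold and Synm 6.30-fold in the first table. Set against the neurofilament core, Gfap over Nefl had a log2 TPM ratio of -1.32 in replicate 2 and -1.66 in replicate 1, so Gfap was lower than Nefl in both libraries.

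GENCODE M21 lists 26 transcripts for the 9 genes, and 17 of them held 5% or more of their gene's TPM in both libraries of at least 1 table. Nefl, Nefh and Ina have 1 transcript each, so their gene levels carry no question of form. Nefm was almost wholly Nefm-201, at 97.5% of its TPM in replicate 2 and 98.2% in replicate 1. The remainder was assigned to Nefm-202, with 136 counts in replicate 2 and 127 in replicate 1. The last exon of that transcript overlaps Nefl exons on the opposite strand by 1108 bases, 32.8% of the exon length of Nefl. The sources used here do not state the strand setting of the counting, so reads in that overlap cannot be assigned with certainty.

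**Figure D3:**
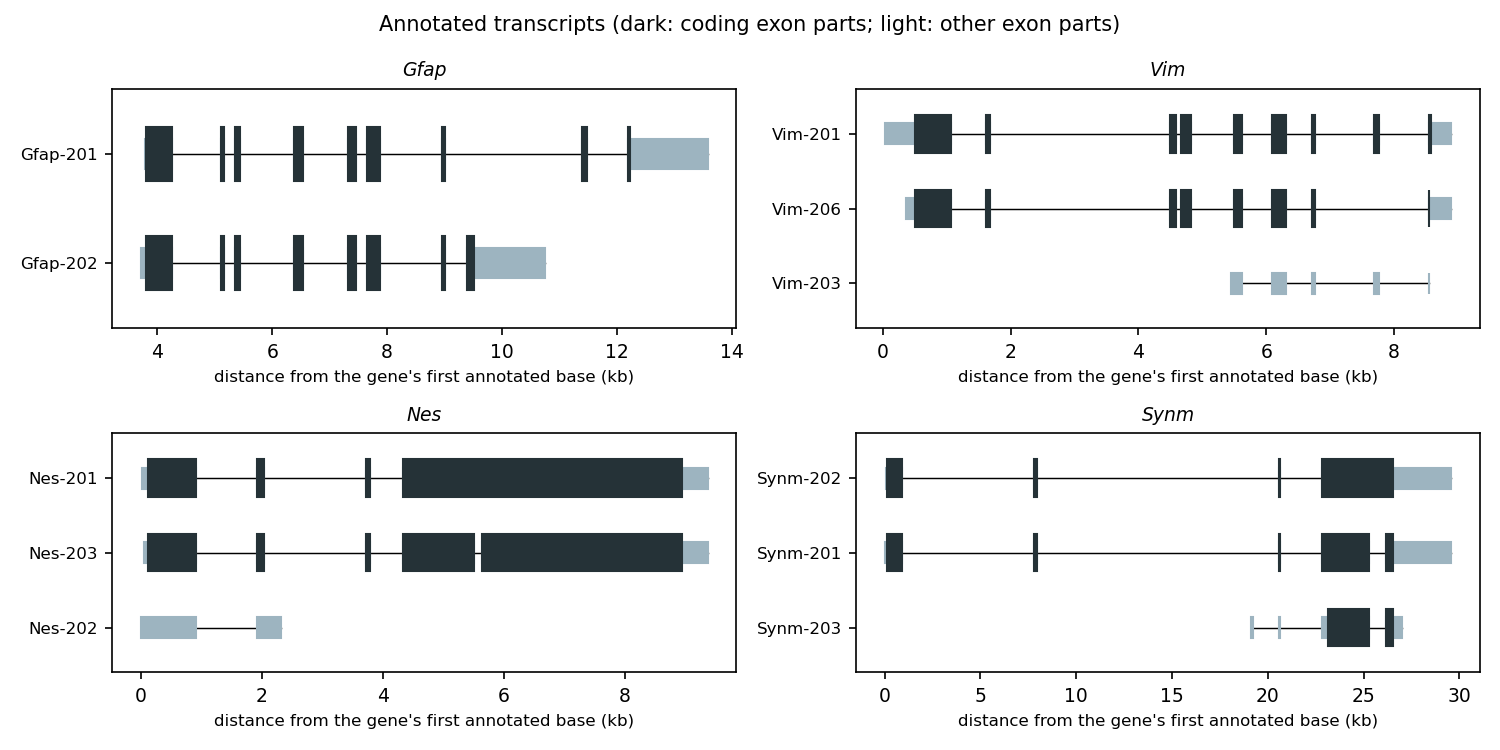
Exon maps of the Gfap, Vim, Nes and Synm transcripts named in the text, drawn in the direction of transcription, with distance from the first annotated base of the gene in kb on the x axis. Dark boxes are coding parts of exons, light boxes are other exon parts and lines are introns, and Gfap-202 ends in an exon that lies inside an intron of Gfap-201.

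The classical form of Gfap made up most of its RNA. Gfap-201, which encodes 430 residues, held 94.5% of Gfap TPM in replicate 2 and 92.9% in replicate 1. Gfap-202 encodes 428 residues and ends in a different last exon of 1355 bases at chr11:102890166-102891520, inside the 2390-base intron that follows exon 7 of Gfap-201. That is the arrangement known for the delta form, in which an alternative tail replaces the usual tail of the protein. The coding end that belongs to each form is 128 bases in Gfap-201 and 122 bases in Gfap-202.

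Gfap-202 held 5.54% of Gfap TPM in replicate 2 and 7.11% in replicate 1, a mean of 6.33% ± 1.11 (SD, n = 2). It rested on 191 counts in replicate 2 (posterior SD 13.1, as the authors deposited it) and 225 counts in replicate 1 (posterior SD 13.5). Its share of Gfap counts was 5.44% in replicate 2 (95% exact binomial interval 4.73 to 6.26) and 6.99% in replicate 1 (6.14 to 7.93). The intervals overlapped slightly, which is not a test of equal shares, and they cover counting error only. The second table gave 11.8% in replicate 2 and 12.2% in replicate 1, a mean of 12% ± 0.288, so the choice of table moved the share by more than the libraries did. Gfap-201 exceeded Gfap-202 by 17.0-fold in replicate 2 and 13.1-fold in replicate 1 in the first table, and by 7.51-fold and 7.23-fold in the same libraries in the second. Of exon bases that the other form lacks, Gfap-201 has 1472 and Gfap-202 has 1424. The third annotated transcript, Gfap-203, received 0 counts in both libraries and both tables.

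The tables assigned Vim to different forms. In the first table Vim-201 held 21.1% of Vim TPM in replicate 2 and 21.6% in replicate 1, and Vim-206 held 45.2% and 51.0% in the same libraries. In the second table Vim-201 held 71.3% in replicate 2 and 78.8% in replicate 1, and Vim-206 held 26.9% and 18.9%. Thus Vim-206 was the more abundant coding form in 2 of 2 libraries of the first table and the less abundant in 2 of 2 libraries of the second. Vim-206 has 0 bases that are absent from every other transcript of the gene, and besides the skipped exon printed above its annotated first exon starts further downstream, so that it has 1777 bases in all, against 2193 in Vim-201. The deposited posterior SD of Vim-201 was 46.7 on 353 counts in replicate 2 and 39.6 on 341 counts in replicate 1.

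A short transcript with a retained intron took a large share of Vim TPM in the first table. Vim-203, of 535 bases, held 33.1% of first-table Vim TPM in replicate 2 and 25.4% in replicate 1, but 10.6% and 7.67% of Vim counts. In the second table it held 0.00944% in replicate 2 and 0% in replicate 1. Only 52 of its bases are intronic for Vim-201. Leaving out the retained-intron transcripts, an alternative chosen after seeing the data, Vim had 25.8 TPM in replicate 2 and 25.5 TPM in replicate 1 in the first table, against 40.8 and 38.4 TPM in the second.

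Nestin forms were also assigned differently by the tables. Nes-201 held 44.2% of first-table Nes TPM in replicate 2 and 52.9% in replicate 1, and Nes-203 held 39.8% and 34.6%. In the second table Nes-203 held 0.600% in replicate 2 and 27.1% in replicate 1, so the libraries differed widely there. Nes-203 lacks a coding stretch of 132 bases (44 codons) at chr3:87976581-87976712 and has 0 bases of its own. The retained-intron transcript Nes-202 held 16.0% of first-table TPM in replicate 2 and 12.5% in replicate 1, from 19.7 and 12 estimated counts.

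Synemin was split between its longer and shorter forms, whose coding sequences differ by an internal stretch of 302 codons in the tail (chr7:67733554-67734459). The longer form, Synm-202, held 37.7% of Synm TPM in replicate 2 and 47.0% in replicate 1. The shorter form, Synm-201, held 62.2% in replicate 2 and 52.6% in replicate 1. In the second table Synm-202 held 33.0% in replicate 2 and 43.2% in replicate 1, and Synm-201 held 45.0% and 49.7%. By TPM, Synm-201 was above Synm-202 in 2 of 2 libraries of both tables. By counts, replicate 1 of the first table had 764 for Synm-201 (posterior SD 72.3) and 768 for Synm-202 (posterior SD 61.7). The order of the forms there was thus within the posterior error. Only 49 bases of Synm-201 are absent from every other transcript of the gene. A further transcript, Synm-203, held 0.101% in replicate 2 and 0% in replicate 1 of the first table, and 22.0% and 7.06% of the second. For Prph, Prph-201 held 87.6% of TPM in replicate 2 and 90.7% in replicate 1. The rest went to the short Prph-203, with 2.22 counts in replicate 2 and 1.47 in replicate 1. The second table gave Prph-203 0% in both libraries.

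**Figure D4:**
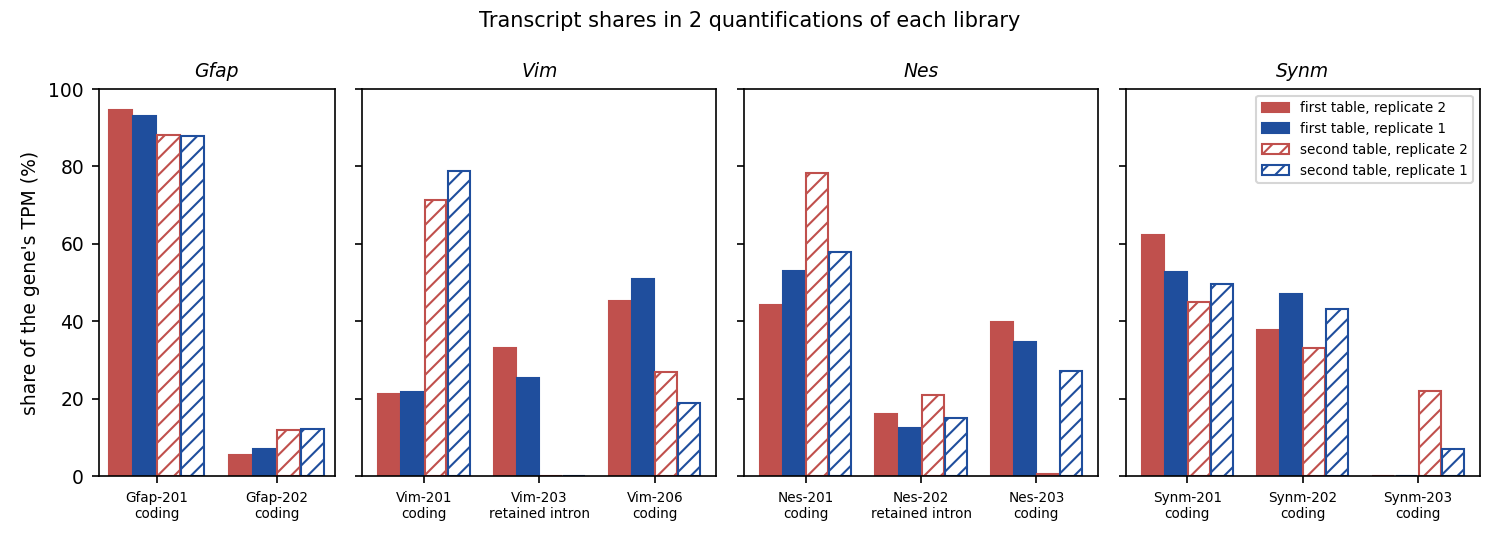
Share of the gene's TPM (%) held by each named transcript of Gfap, Vim, Nes and Synm, for the first table (filled bars) and the second (hatched bars), replicate 2 then replicate 1. The tables differ less for Gfap-201 (94.5% and 92.9% in the first, 88.2% and 87.8% in the second) than for Vim-201 and Vim-206.

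Between the libraries, the core and medium neurofilament chains were lower in replicate 2 and the astrocyte and progenitor filament genes Gfap and Nes were higher. Rounded expected counts were compared by a two-sided exact binomial test, with Benjamini-Hochberg adjustment over the 18887 genes that had 10 counts or more in at least 1 library. The test takes counting error alone, and compares these libraries and not conditions. Of the 9 genes, 5 passed (adjusted p under 0.05), against 20.3% of all tested genes. The passing genes were 2 higher in replicate 2 (background 8.88%) and 3 lower (background 11.4%), and the 5 had 423 counts or more in each library. Over all genes 1678 were higher in replicate 2 and 2152 lower, but 2733 were higher and 1145 lower with libraries scaled by total counts.

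Nefm had 4851 counts in replicate 2 and 6258 in replicate 1. As normalised CPM (counts per 1e6 of the library size after TMM scaling), Nefm had 149 in replicate 2 and 192 in replicate 1. It was lower in replicate 2 by a log2 ratio of -0.37 ± 0.03 (counting SE; exact binomial test, adjusted p = 2.86e-38). Nefl had 11272 counts in replicate 2 and 13113 in replicate 1, or 345 and 401 CPM, a log2 ratio of -0.22 ± 0.02 (exact binomial test, adjusted p = 9.54e-30). Ina, with 172 CPM in replicate 2 and 188 in replicate 1, had -0.13 ± 0.03 (exact binomial test, adjusted p = 2.36e-05). These 3 were lower in replicate 2, while Nefh had -0.09 ± 0.05 and did not pass (exact binomial test, adjusted p = 0.234).

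Nes was higher in replicate 2, with 526 counts in replicate 2 and 423 in replicate 1, a log2 ratio of 0.30 ± 0.09 (exact binomial test, adjusted p = 0.00639). Gfap had 3501 counts in replicate 2 and 3217 in replicate 1, a log2 ratio of 0.12 ± 0.04 (exact binomial test, adjusted p = 0.00406). Vim, Synm and Prph did not pass, with log2 ratios of -0.01 ± 0.06, -0.07 ± 0.05 and 0.11 ± 0.22. The Vim ratio was 0.05 when libraries were scaled by total counts or by spike-ins.

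The differences of the 9 genes were close in size to those of all tested genes. The median absolute log2 ratio was 0.12 over the 9 genes and 0.12 over all 18887, and 12.4% of tested genes had a larger absolute ratio than Nefm. Counts of the 2 libraries differed by far more than counting error over all genes (chi-square over degrees of freedom 11.3). With an assumed dispersion of 0.01 for the spread between samples (edgeR exact test), 0 of 9 passed, also at an unadjusted p under 0.05, against 0.964% of all genes (0.529% higher in replicate 2 and 0.434% lower). Under counting error alone the same 5 genes passed with other library scalings (total counts, 20.5% of all genes, spike-ins, 20.1%, and DESeq2 size factors, 19.8%), with no count filter (12.2%) and in the second table (20.2%).

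**Figure D5:**
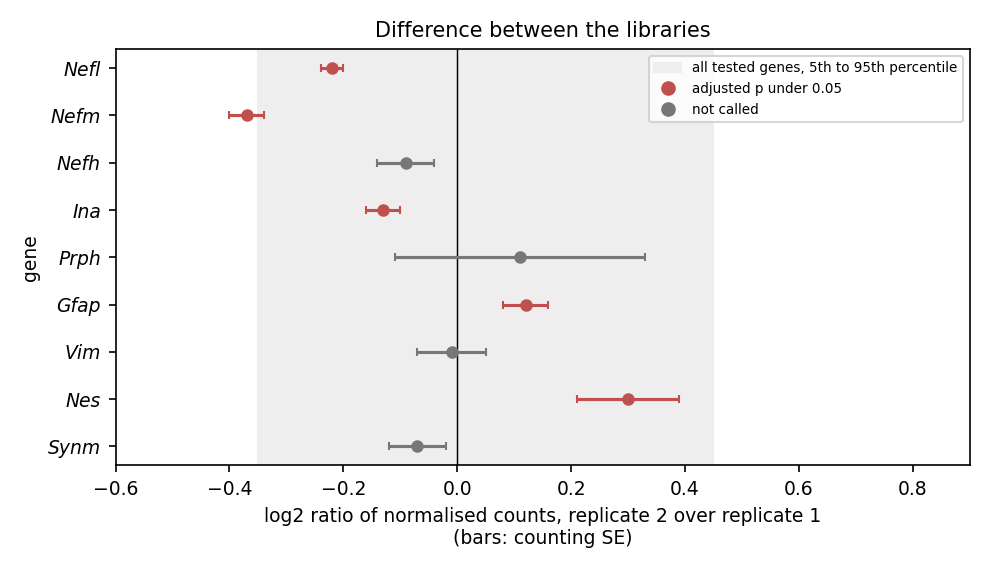
Log2 ratio of normalised counts, replicate 2 over replicate 1, for the 9 genes, with bars of 1 counting SE, and red points for an adjusted p under 0.05. The grey band shows the central spread of all tested genes (5th to 95th percentile, -0.35 to 0.45), and Nefm at -0.37 is just outside the lower edge.

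Cell markers moved between the libraries beside these genes, and their part in the differences was not tested. Over all tested genes 8.88% were higher in replicate 2 and 11.4% lower, the background for the counts of each list. Genes with many counts passed at small differences, such as Map2 at 1.02-fold. Of 7 neuron markers, 4 were lower in replicate 2 and 1 was higher, with a median log2 ratio of -0.12. Of 6 parvalbumin interneuron markers, 3 were lower, and of 7 layer 5 projection neuron markers, 2 were lower. With total counts, 2 parvalbumin interneuron markers were lower, and layer 5 markers had 2 lower and 1 higher. Beside Nefl and Nefm, all 8 myelinating oligodendrocyte markers were lower, with a median of -0.93. Beside Gfap, 7 of 10 astrocyte markers were lower and 1 (Aqp4, the astrocyte water channel) was higher, against 6 lower and 2 higher with total counts. Beside Nes, 4 of 9 neural progenitor and proliferation markers were higher and none was lower, with sums of 160 TPM in replicate 2 and 114 TPM in replicate 1. Endothelial, mural and fibroblast markers had 2 of 9 higher (Dcn and Slc6a13), with sums of 177 TPM in replicate 2 and 165 TPM in replicate 1. Of 5 microglia markers 2 were lower, and 0 were with total counts.

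The enzymes that modify neurofilament tails were well expressed. All 16 genes of the list of kinases, activators and phosphatases were detected. Among the highest were Cdk5r2 and Cdk5r1, activators of the kinase Cdk5, at 276 ± 11.8 and 163 ± 9.28 TPM (SD, n = 2 each). Between the libraries 3 of the 16 were higher in replicate 2 and 8 lower, with a median log2 ratio of -0.06. That split depends on scaling, since total counts gave 5 higher and 3 lower.

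All 12 genes of neurofilament transport and turnover were detected, led by Uchl1, a deubiquitinase, at 497 ± 12.8 TPM, and the kinesin motors Kif5a and Kif5c at 291 ± 15.5 and 264 ± 0.721 TPM (SD, n = 2 each). None was higher in replicate 2 and 4 were lower, against 2 higher and 3 lower under total counts. Of 5 genes for proteins that bind neurofilament mRNA, Hnrnpk had 309 ± 11.8 and Ewsr1 127 ± 12.6 TPM (SD, n = 2 each). Between the libraries 3 of these 5 were higher in replicate 2, against 4 under total counts. Of 7 cytolinkers, which tie filaments to other structures, 3 were detected: Dst at 114 ± 0.297, Macf1 at 95.7 ± 6.10 and Plec at 60.6 ± 2.66 TPM (SD, n = 2 each). Of these Dst and Plec were lower and Macf1 higher in replicate 2, against 1 lower and 1 higher of the list under total counts.

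On the glial side, all 11 regulators of astrocyte and progenitor filament genes were detected, the highest being the nuclear factor I genes Nfix at 208 ± 6.46, Nfib at 45.2 ± 3.16 and Nfia at 34.0 ± 2.43 TPM (SD, n = 2 each). Of the 11, 1 was higher in replicate 2 and 2 lower, against 3 higher and 1 lower under total counts. Genes of reactive astrocytes were low: 7 of 12 were detected, the highest being Serpina3n at 3.99 ± 0.311, S1pr3 at 3.83 ± 0.361 and Cd44 at 3.69 ± 0.382 TPM (SD, n = 2 each). None of the 9 tested passed in either direction (exact binomial test with Benjamini-Hochberg adjustment). Their median log2 ratio was 0.13, against 0.00 over all tested genes.

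Exon overlap with other genes limits some of these levels. Ina shares 456 bases of exon, 14.1% of its length, with Nt5c2 on the opposite strand, which had 31.8 TPM in replicate 2 and 29.8 TPM in replicate 1. Synm shares 426 bases with Gm45102 and 84 bases with Ttc23, both on the opposite strand, and these had 0.580 and 3.67 TPM in replicate 2 and 0.370 and 2.55 TPM in replicate 1. Within these overlaps, as within that of Nefl and Nefm, sense and antisense reads cannot be told apart without the strand setting. For Nefm that overlap lies in Nefm-202 and not in Nefm-201, which held 97.5% of Nefm TPM in replicate 2 and 98.2% in replicate 1.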

How the data were processed

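Total RNA libraries with ERCC spike-ins were quantified by the authors on mm10, per the labels. Expected counts and TPM in the deposited first tables, and estimated counts and TPM in the deposited second transcript tables, are estimates that need not be whole reads. The sources used here do not name an aligner, quantifier, settings or strand use. Both tables give TPM that sum over all rows, spike-ins included. The 55536 gene identifiers used are those found in GENCODE M21, which gave symbols and mm10 coordinates. Rows of 96 spike-ins and 26249 other rows not found there (4.84 counts in replicate 2 and 5.00 in replicate 1) stayed out of totals and tests. No sequence table of proteins was used here, so forms were compared by coding sequence.

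Expected counts were rounded. The 18887 genes with at least 10 counts in either library were compared by a two-sided exact binomial test with the expected share from TMM sizes (edgeR 4.0.16, R 4.3.3), adjusted by Benjamini-Hochberg. Log2 ratios are of (normalised CPM + 0.5), computed from the deposited counts, and those between genes are of (TPM + 0.1); both understate changes of low genes. The binomial test takes counting error alone, and whether the libraries come from separate animals is not known. As the counts differed by more than sampling noise, the libraries were kept as 2 samples. Python 3.11.15, pandas 2.3.3, SciPy 1.17.1 and DESeq2 1.42.0 (size factors as an alternative) were also used.

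The members, gene lists and tests were chosen with earlier results of these data known. Named were all 9 genes, of each list of filament-system genes the 3 with the highest mean TPM and any called with a difference of 1.5-fold or more, and every transcript at 5% or more of its gene's TPM in both libraries of either table. Some items that this rule takes are not reported here. With 1 condition, no likeness of patterns was computed. Other genes named were chosen after their values were seen. Alternatives were the second table, TPM over protein-coding genes, other pseudocounts, other library scalings, no count filter, an assumed dispersion and leaving out each replicate.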

Additional observations from a re-analysis of the deposited data

How the results depend on the processing

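No paired analysis was possible because the data hold 1 group. In the second table the log2 TPM ratio was 0.91 for Nefl over Ina, 3.08 for Nefl over Nefh and 1.13 for Gfap over Vim, and the Gfap-202 share was 12%; the cause was not tested. With an assumed dispersion of 0.01, 0 members were called higher in replicate 2 and 0 lower, as the test then allows a wider spread, and all-gene calls were 100 higher and 82 lower, against 1678 and 2152. With sizes from total counts these were 2733 and 1145, and with sizes from spike-ins 2570 and 1229. The Vim log2 ratio, not called, changed sign to 0.05 under total counts and to 0.05 under spike-ins. With 1 library left out, each value is that of the other library, and Nefl over Nefm ranged from 1.05 to 1.20, Nefl over Ina from 0.94 to 1.03, Nefl over Nefh from 3.20 to 3.33, Gfap over Vim from 0.74 to 0.78 and the Gfap-202 share from 5.54% to 7.11%. The library difference cannot be computed with 1 library. Depth limits Prph, with 89 counts in replicate 2 and 81 in replicate 1.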

Other observations

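A list of 17 other intermediate filament genes, which does not cover the whole family, was also summed. Of these, 9 reached 1 TPM in each library, and the list summed to 109 TPM in replicate 2 and 99.0 TPM in replicate 1. The highest were Iffo1 at 25.4 ± 2.55 TPM, the nuclear lamin gene Lmna at 24.3 ± 1.88 TPM and the keratin-like gene Krt222 at 15.6 ± 1.97 TPM (SD, n = 2 each). Between the libraries 1 of 12 tested was higher in replicate 2 and 1 lower (exact binomial test with Benjamini-Hochberg adjustment), namely Lmnb2 (log2 0.31 ± 0.09) and Krt222 (-0.19 ± 0.07), with counting SEs; with total counts or spike-ins the count was 1 higher and 0 lower. Lmnb2, another lamin gene, was named after its value was seen. Among the other 7 keratin genes of the list, Krt10 had 77 counts in replicate 2 and 86 in replicate 1 (6.21 ± 0.601 TPM, SD, n = 2), Krt18 had 11 and 4 counts and Krt19 had 6 and 2 counts in the same libraries, and Krt5, Krt8, Krt14 and Krt20 had 4 counts or fewer in each.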
